A study of Mus musculus with 8 samples.

Results

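Genes for the mitochondrial ribosome and for the respiratory chain were examined in thymic epithelial cells (TECs) of mouse embryos. Members were chosen by symbol: mitochondrial ribosomal proteins (Mrpl and Mrps), subunits of complex I (Ndufa, b, c, s and v), complex III (Uqcr), complex IV (Cox4 to Cox8), and ATP synthase, or complex V (Atp5), and the protein-coding genes of the mitochondrial genome (mt-Nd, mt-Co, mt-Atp and mt-Cytb), without the 13 records whose symbols carry -ps. Of 55450 gene records, 176 were members: 163 in the nucleus (49 Mrpl, 29 Mrps, 40 complex I, 8 complex III, 19 complex IV, and 18 complex V) and 13 in mitochondrial DNA. The symbols also took in Atp5s, Cox7a2l, and Ndufa4l2, which are not classical subunits, and Ndufa4, now counted with complex IV. Enough counts for the test were found for 170 members, 157 nuclear and all 13 mitochondrial. The 6 others were Cox8c (0 counts in every library), Cox7b2, Cox6c2, Ndufa11b, Ndufs6b, and a second record of Atp5o.

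The cells were CD45- EpCAM+ TECs sorted on embryonic day 17 (E17) from embryos that carried both a tdTomato reporter knocked into Ccl21a, the gene for a chemokine that attracts thymocytes, and a Venus transgene that reports Tnfrsf11a, the gene for the receptor RANK. Every library comes from these double-reporter embryos, so no group is reporter-free. The knock-in was heterozygous (Ccl21a tdTomato/+) by the study's description, so every embryo kept 1 intact Ccl21a allele. CCL21+RANK- TECs (tdTomato+ Venus-, n = 3 libraries) and CCL21-RANK+ TECs (tdTomato- Venus+, n = 3) were compared with each other and with CCL21-RANK- TECs (tdTomato- Venus-, n = 2), to ask how the first 2 populations differ in gene expression. They are called CCL21+ TECs, RANK+ TECs, and double-negative TECs from here on. Total counts per library ranged from 42751858 to 71625319. How many embryos or pools lie behind each library is not given, so p-values measure only the spread between these libraries.

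The sorted labels were checked on the reporter genes. Levels are given as RPKM, reads per kilobase of exon scaled to library size, after TMM scaling of the library totals, so that libraries can be compared. The length is that of all annotated exons of a gene, not of the transcripts expressed. Rankings between genes, shares of gene pairs, and the RPKM threshold therefore depend on the annotation. Ccl21a was at 579, 385, and 293 RPKM in CCL21+, at 136, 95.4, and 75.0 in RANK+, and at 7.48 and 8.69 in double-negative TECs. Tnfrsf11a was at 9.06, 10.5, and 9.85, at 99.5, 92.6, and 103, and at 2.85 and 2.21 RPKM in the same order. Each reporter gene was highest in the population named for it, and the populations did not overlap, although the RANK+ libraries held more Ccl21a than the double-negative libraries. Of 10 TEC markers, led by the keratin Krt8, 6 were higher and 3 lower in CCL21+ than in RANK+ TECs. In that comparison 23.1% of all tested genes were higher and 30.6% lower. Summed levels of the 10 were 4520, 4386, and 4055 RPKM in CCL21+ and 1576, 1791, and 1435 in RANK+ TECs. In double-negative TECs they were 3174 and 3035, so the RANK+ libraries were lowest. The list holds Ccl21a and Tnfrsf11a, whose reporters were sorted on, so part of the split and of the sums was set by the sort. It also holds the cortical genes Psmb11 and Prss16, so the sums do not measure epithelial identity alone. Epcam was found in all 8 libraries, from 48.3 to 140 RPKM.

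Cells burn fuel in mitochondria by passing electrons along complexes I to IV and using the proton gradient to make ATP in complex V. Most subunits are encoded in the nucleus, made in the cytosol, and imported. A few core subunits are encoded in mitochondrial DNA, transcribed from both of its strands as long precursors, and translated by a ribosome whose proteins are all nuclear-encoded. The 2 genomes must therefore supply parts of the same machines, and the comparison of nuclear with mitochondrial genes was made across the 3 populations.

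A gene passed the test when its Benjamini-Hochberg adjusted p over 21451 tested genes was under 0.05 in edgeR's quasi-likelihood test. In CCL21+ against RANK+ TECs, 18 of 157 nuclear members were higher and 30 were lower. The 18 became 9 without RANK+ replicate 3 and 10 without CCL21+ replicate 2. Of all tested genes, 23.1% were higher and 30.6% were lower, so both shares of the members lay below the background. The median log2 fold change was -0.08 for the nuclear members and -0.11 for all tested genes, and 134 of the 157 differed by less than 1.5-fold. In bulk samples such as these, fewer cells of a type and less RNA per cell cannot be told apart.

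Against double-negative TECs, 0 nuclear members were higher and 14 were lower in CCL21+ TECs by edgeR, where 6.28% and 5.15% of all tested genes were higher and lower. At an unadjusted p under 0.05 edgeR had 1 higher and 57 lower of the 157, beside 2699 higher and 2675 lower of all 21451 genes, and DESeq2 also called 0 higher. The median log2 fold change of the nuclear members was -0.28, against 0.00 for all genes, and 149 of 157 had a negative value. Between RANK+ and double-negative TECs, 8 nuclear members were higher and 48 were lower in the RANK+ cells, beside 27.0% and 21.9% of all tested genes, with medians of -0.22 and 0.06. These counts rested on single libraries: the 48 became 24 without double-negative replicate 1, 17 without double-negative replicate 2, and 29 without RANK+ replicate 3, the 8 became 3 and 5 without either double-negative library, and the 14 ranged from 0 to 32. The comparisons share libraries, so their values are set side by side and not tested against each other. Beside these counts stands that of 15 cell cycle genes, led by Pcna, a clamp of DNA replication: all 15 were lower in CCL21+ than in RANK+ TECs and 14 were lower than in double-negative TECs, with summed levels of 113, 109, and 119 RPKM, of 230, 364, and 322, and of 225 and 247. Of 6 parathyroid markers, 5 were higher in CCL21+ than in double-negative TECs, with summed levels of 7458, 2022, and 1961 RPKM against 76.9 and 81.8. The part of either list in the lower respiratory genes was not tested.

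**Figure D1:**
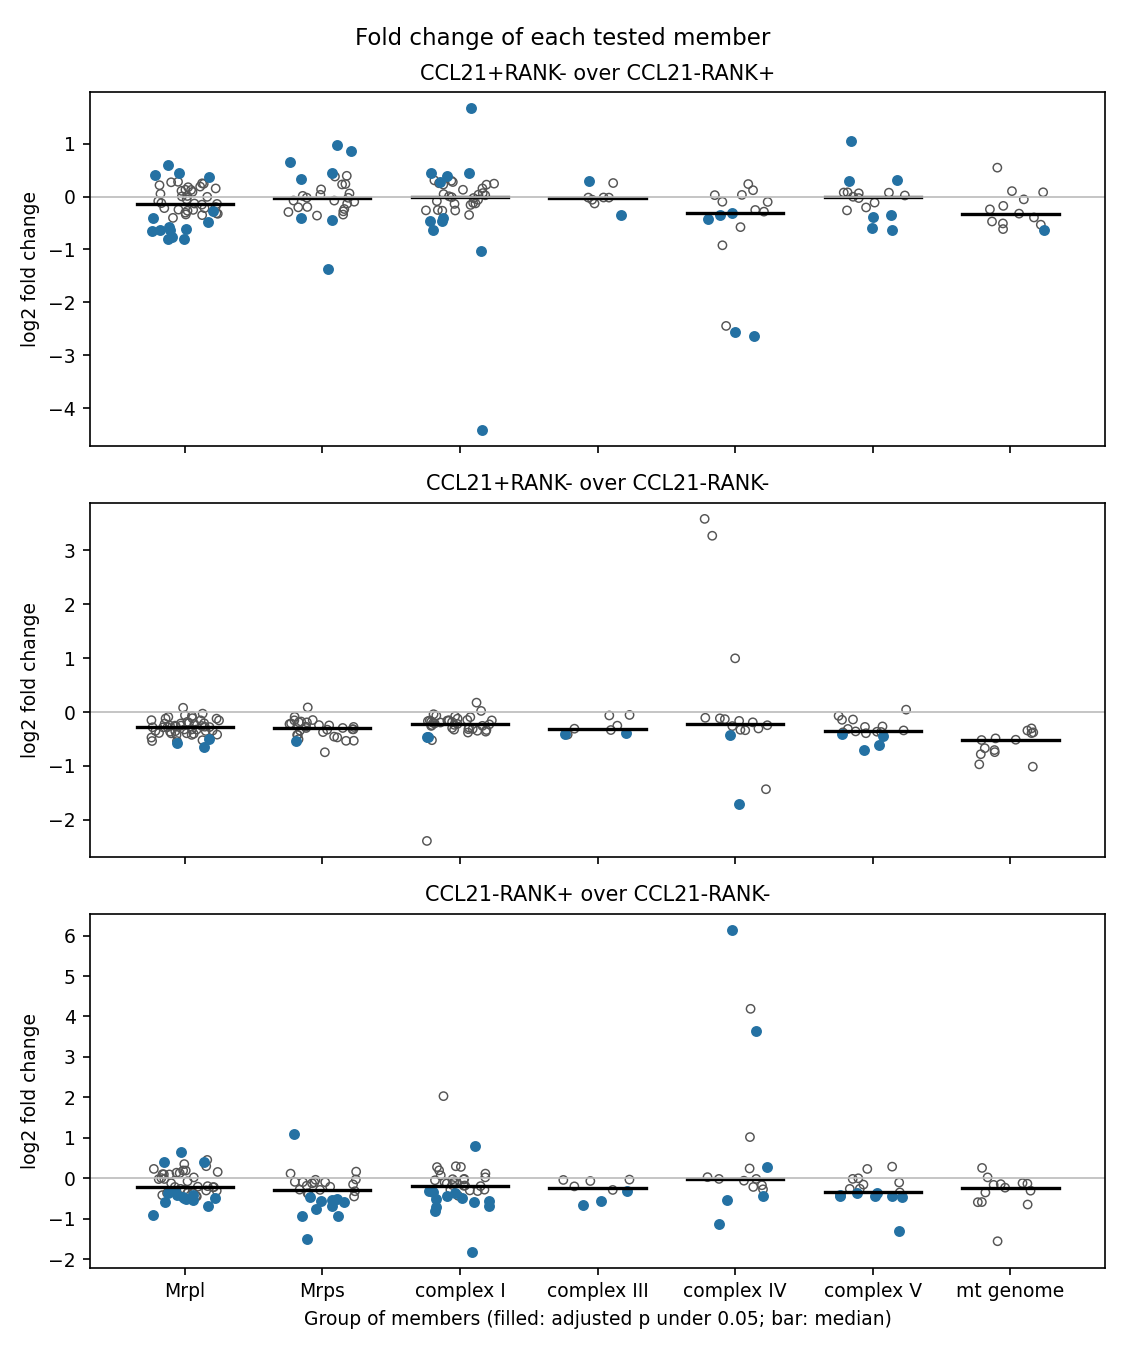
Each point is 1 tested member, by group along the horizontal axis, with its log2 fold change on the vertical axis in the 3 comparisons; filled points passed the test (adjusted p under 0.05), open points did not, and bars are medians. Most points lie close to 0, single members such as Ndufa11 (1.67 in the top panel) and Mrps5 (-1.37) stand apart, and in the middle panel all but 8 of the 157 nuclear members lie below 0.

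The split into higher and lower moved with the scaling. With DESeq2's size factors in the same edgeR fit, 10 nuclear members were higher and 43 lower in CCL21+ against RANK+ TECs, and 16 were higher and 25 lower in RANK+ against double-negative TECs, since this scaling moved the median of all tested genes to -0.20 and 0.20. Relative to the median of all tested genes, the nuclear members lay at 0.04, -0.28, and -0.28 in the 3 comparisons with TMM and at 0.04, -0.24, and -0.28 with DESeq2's factors. The choice of reference genes moved this further. Against the 6563 tested protein-coding genes with a mean of 5 to 300 RPKM, whose medians were 0.19, -0.05, and -0.25, the nuclear members lay at -0.27, -0.22, and 0.03. Among those genes 64.6% passed the test in CCL21+ against RANK+ TECs, compared with 30.6% of the nuclear members.

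With a fold change over 1.5 and a mean over 1 RPKM in the higher group added, the kind of threshold the study used, 6 nuclear members were higher and 15 lower in CCL21+ than in RANK+ TECs, 13.4% of those tested beside 30.5% of all genes. In the other comparisons 4 nuclear members (background 8.06%) and 21 nuclear members (background 29.2%) passed. These genes, together with the most abundant subunits, are described group by group.

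In complex I, which takes electrons from NADH, 5 of 38 tested members were higher and 6 lower in CCL21+ than in RANK+ TECs, both below the 23.1% and 30.6% of all tested genes. Ndufa11, an accessory subunit of its membrane arm, was the most abundant nuclear complex I member by the mean of the 3 group means (95.5 RPKM). Within RANK+ TECs its mean of 37.1 RPKM lay below that of other members, such as Ndufa1 (63.9). Ndufa11 was at 107, 126, and 122 RPKM in CCL21+, at 32.6, 39.8, and 39.0 in RANK+, and at 132 and 130 in double-negative TECs. All 3 RANK+ libraries were far below the 5 others. The log2 fold change was 1.67 ± 0.11 (SE; edgeR adjusted p = 2.54e-06) over RANK+ TECs, a 3.19-fold difference, and -0.15 ± 0.12 over double-negative TECs (adjusted p = 0.51).

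Ndufa11 (chr17:56717767-56722141, plus strand, GRCm38) starts head to head with Vmac on the other strand, and 1 Vmac transcript begins inside Ndufa11, so that their exons overlap. Vmac was at 26.4, 28.6, and 29.4 RPKM, at 5.77, 7.06, and 7.15, and at 33.0 and 34.7, and it too passed the test (log2 fold change 2.08 in CCL21+ over RANK+ TECs, edgeR adjusted p = 9.36e-07). Whether the counting used the strand of the reads is not given, so reads in the overlap cannot be told apart. The stretch between the nearest upstream Vmac exon, which ends at base 56717685, and the start that RefSeq gives Ndufa11 is shown because both genes fell together in RANK+ cells (chr17:56717686-56717761, plus strand). Capitals mark the letters GCGCANGCG of the nuclear respiratory factor NRF1, found here on both strands in overlapping matches.
Ndufa11 upstream: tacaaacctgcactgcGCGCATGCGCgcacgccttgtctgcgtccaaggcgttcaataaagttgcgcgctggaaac

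Ndufc2, another accessory subunit of the complex I membrane arm, went the other way (it was picked after its values were seen). It was at 39.0, 37.9, and 43.5 RPKM in CCL21+, at 90.6, 74.7, and 81.1 in RANK+, and at 46.9 and 47.7 in double-negative TECs. Each RANK+ library was above each of the 5 others. The log2 fold change was -1.03 ± 0.11 (edgeR adjusted p = 3.4e-05) in CCL21+ over RANK+ TECs and 0.80 ± 0.12 (adjusted p = 0.00049) in RANK+ over double-negative TECs. The 120 bases before its RefSeq start (chr7:97399883-97400002, plus strand) are set beside those of Ndufa11 because the pair lies in 1 arm of 1 complex and moved in opposite directions. They hold no match to the 3 motifs searched.
Ndufc2 upstream: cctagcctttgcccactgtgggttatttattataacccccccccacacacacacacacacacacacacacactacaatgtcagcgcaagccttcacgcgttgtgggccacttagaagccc

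**Figure D2:**
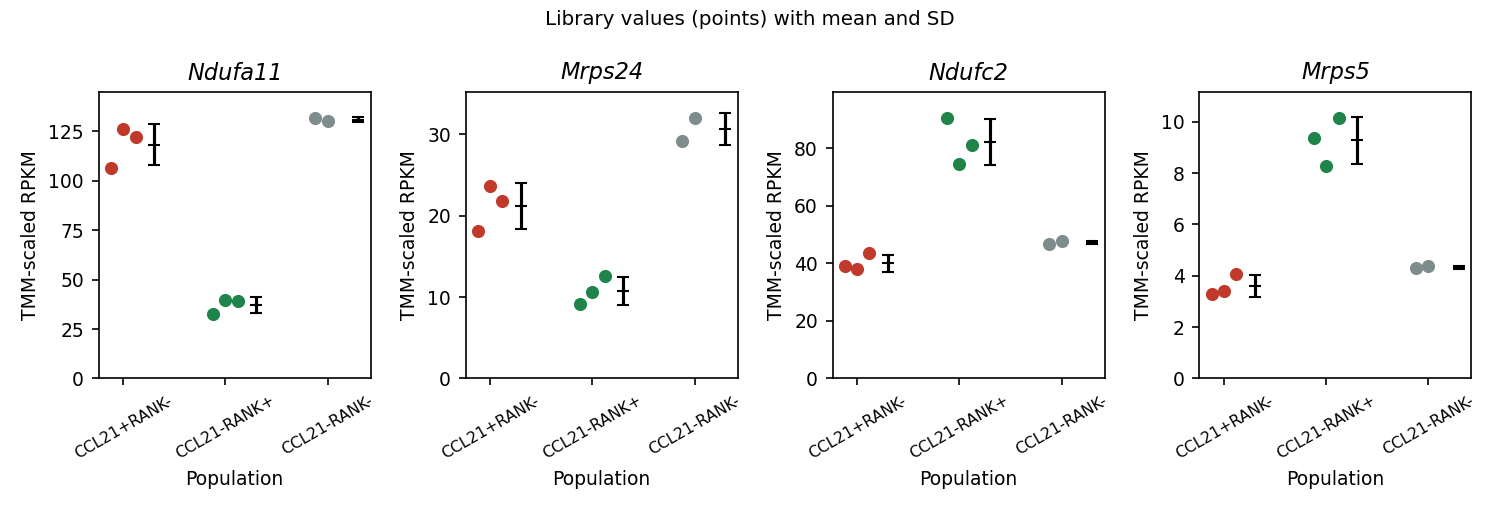
RPKM of Ndufa11, Mrps24, Ndufc2, and Mrps5 (vertical axes from 0) in the 3 populations; points are libraries and bars are the mean and SD of each group (n = 3, 3, and 2). The 3 RANK+ libraries lie below all others for Ndufa11 and Mrps24 and above all others for Ndufc2 and Mrps5.

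Ndufa2, an accessory subunit next to the NADH-binding arm and the second most abundant complex I member, was at 71.0, 80.5, and 77.9 RPKM, at 64.0, 61.2, and 63.4, and at 94.7 and 95.2. Its 3 groups did not overlap. The log2 fold change was 0.28 ± 0.09 in CCL21+ over RANK+ TECs (edgeR adjusted p = 0.025) and -0.59 ± 0.10 in RANK+ over double-negative TECs (adjusted p = 0.00098). The first of these calls was lost under 5 of 7 other settings (scalings, filters, DESeq2, and only the libraries compared), at 0.14 to 0.23 where lost. It was also lost without CCL21+ replicate 2 or 3, RANK+ replicate 2 or 3, or double-negative replicate 2 (0.23 to 0.28).

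Among the mitochondrial ribosomal proteins, 9 of 78 were higher and 14 lower in CCL21+ than in RANK+ TECs. Against double-negative TECs 4 of 78 passed, all lower, a share (5.13%) near the 5.15% of all tested genes. In CCL21+ against RANK+ TECs the large subunit gave 4 higher and 11 lower of 49 and the small subunit 5 higher and 3 lower of 29, each below the 23.1% and 30.6% of all tested genes. Mrps24 of the small subunit was at 18.1, 23.7, and 21.8 RPKM in CCL21+, at 9.16, 10.6, and 12.5 in RANK+, and at 29.2 and 32 in double-negative TECs. The 3 groups did not overlap, and the RANK+ libraries were lowest. Its log2 fold changes were 0.98 ± 0.15 (edgeR adjusted p = 0.00041) and -1.51 ± 0.16 (adjusted p = 5.11e-05) in the 2 comparisons that involve RANK+ cells.

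Mrps24 (chr11:5703983-5715680, minus strand) shares exonic bases with Urgcp on the same strand. Urgcp was at 10.7, 9.95, and 10.3 RPKM, at 6.64, 7.91, and 7.18, and at 9.86 and 9.65, so both genes of this overlap were lowest in RANK+ cells. The 120 bases before the RefSeq start of Mrps24 (chr11:5707702-5707821, written on the minus strand) are shown as the third gene whose level set RANK+ cells apart, and they hold no match to the 3 motifs, while the YY1 letters occur after the start, in the rest of the 300-base window.
Mrps24 upstream: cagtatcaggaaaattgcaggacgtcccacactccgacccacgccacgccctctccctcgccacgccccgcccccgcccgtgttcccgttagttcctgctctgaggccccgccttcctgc

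Mrps5, of the same subunit, was highest in RANK+ cells, at 3.29, 3.41, and 4.08 RPKM in CCL21+, at 9.38, 8.29, and 10.1 in RANK+, and at 4.30 and 4.37 in double-negative TECs. No RANK+ library overlapped another library. The log2 fold changes were -1.37 ± 0.12 (edgeR adjusted p = 1.22e-05) and 1.1 ± 0.14 (adjusted p = 0.00014). Proteins of 1 ribosomal subunit, which are built into the same particle, therefore differed in opposite directions at the RNA level.

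In the large subunit the extremes were smaller. Mrpl3 was at 5.04, 4.79, and 4.49 RPKM in CCL21+ and at 2.47, 3.44, and 3.53 in RANK+ TECs, a log2 fold change of 0.60 ± 0.14 (edgeR adjusted p = 0.0061). Mrpl33 was at 1.04, 0.969, and 0.805 against 1.45, 1.72, and 1.76 (log2 fold change -0.81 ± 0.17, adjusted p = 0.0035). In both the groups did not overlap. By the mean of the group means Mrpl14 was the most abundant large-subunit member and Mrpl38 the second. In RANK+ TECs Mrpl38 was above Mrpl14 (means of 40.2 and 28.8 RPKM). Mrpl14 was higher in CCL21+ than in RANK+ TECs (log2 fold change 0.45 ± 0.12, edgeR adjusted p = 0.0093). This call was lost without RANK+ replicate 3 (0.33) or with at least 10 counts in every library (0.31). Tmem63b, which overlaps Mrpl14 on the other strand, went the other way (-0.32, edgeR adjusted p = 0.030). Mrpl38 was lower in CCL21+ than in RANK+ TECs (-0.58 ± 0.13, adjusted p = 0.0039). Mrps21 and Mrps7, the most abundant of the small subunit, passed no comparison, with log2 fold changes between -0.18 and 0.16.

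In complex III, which passes electrons to cytochrome c, Uqcr10 was higher (log2 fold change 0.30 ± 0.11, edgeR adjusted p = 0.042) and Uqcrfs1, the iron-sulfur subunit, lower (-0.34 ± 0.10, adjusted p = 0.015) in CCL21+ than in RANK+ TECs. Uqcrfs1 was at 40.1, 39.9, and 47.4 RPKM in CCL21+, at 51.5, 54.2, and 56.0 in RANK+, and at 55.2 and 58.0 in double-negative TECs. The CCL21+ libraries were the 3 lowest, and the call was lost without CCL21+ replicate 1 (-0.30). For Uqcr10 the call was lost under all 7 of these settings (0.16 to 0.29), including DESeq2. Uqcr11, the most abundant member, was lower in both CCL21+ (log2 fold change -0.38, adjusted p = 0.0496) and RANK+ (-0.32, adjusted p = 0.032) than in double-negative TECs, calls that were lost under 6 and 7 of the same 7 settings.

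In complex IV, cytochrome c oxidase, 5 of 16 tested members passed between CCL21+ and RANK+ TECs, all of them lower in the former; the share, 31.3%, is near the 30.6% of all tested genes that were lower. Cox4i1, its most abundant nuclear subunit by the mean of the 3 group means, was at 132, 131, and 153 RPKM, at 185, 168, and 166, and at 174 and 176. The CCL21+ libraries were the 3 lowest, with a log2 fold change of -0.32 ± 0.10 to RANK+ TECs (edgeR adjusted p = 0.024) that no longer passed without CCL21+ replicate 1 (-0.28) or replicate 2 (-0.30). Cox8a, the second, was lowest in RANK+ cells instead, at 138, 116, and 126 RPKM against 147, 152, and 149 in CCL21+ and 188 and 181 in double-negative TECs, and passed against the latter (-0.54 ± 0.10, adjusted p = 0.0019).

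Several subunits exist in a broadly expressed form and in a form found mainly in muscle, lung, or testis. Ndufa4l2, which is not a classical subunit, was counted with the restricted forms as the partner of Ndufa4. By RPKM the broad form made up most of each pair in every population. Of the 6 tested restricted forms 3 passed between CCL21+ and RANK+ TECs, all lower in the former. Of all tested genes 53.7% passed and 30.6% were lower. Ndufa4l2 took the largest part, 12.4% of its pair with Ndufa4 in RANK+ TECs, compared with 0.879% in CCL21+ and 4.02% in double-negative TECs. It was at 0.569, 0.0882, and 0 RPKM, at 11.9, 1.56, and 0.943, and at 0.103 and 2.25, so that 1 RANK+ library carried most of it. Its log2 fold change of -4.42 in CCL21+ over RANK+ TECs (edgeR adjusted p = 0.032) was -2.49 without that library and no longer passed; it was also lost without CCL21+ replicate 2 (-4.15) or 3 (-3.82). Shmt2, which overlaps Ndufa4l2 on the other strand, was also highest in RANK+ cells (28.1, 26.8, and 26.3 RPKM against 8.95, 6.21, and 6.79 in CCL21+ TECs).

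Cox7a1, the heart and muscle form of subunit 7a, was at 0.614, 0.226, and 0.228 RPKM in CCL21+, at 4.22, 0.667, and 1.89 in RANK+, and at 0.151 and 0.204 in double-negative TECs. Cox8b, the muscle form of subunit 8, was at 0.240, 0.403, and 0.290, at 4.05, 0.991, and 0.499, and at 0 and 0.0380. All RANK+ libraries were above the others for both genes, and RANK+ replicate 1 was again the highest. Both passed against CCL21+ TECs (log2 fold changes -2.64 and -2.57, edgeR adjusted p = 0.019 and 0.047) and both were lost without that library (-1.82 and -1.26), Cox7a1 also without CCL21+ replicate 2 or 3 (-2.46 and -2.40) and Cox8b without any 1 of 6 libraries (-2.83 to -1.26). Cox6b2, the testis form of subunit 6b, was highest in double-negative TECs instead (0.812, 1.66, and 1.59, then 2.40, 1.45, and 2.19, then 3.82 and 4.96 RPKM). Cox4i2 and Cox6a2 stayed under 1 RPKM as group means and passed no comparison.

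RANK+ replicate 1 was also the highest library for 2 genes of other cell types and for the summed fibroblast and endothelial markers, but the lowest of the 3 RANK+ libraries for the summed blood cell markers. Lyz2, a myeloid gene, was at 46.9, 14.7, and 17.1 RPKM in RANK+ TECs and at most 0.171 elsewhere, and Col1a1, a fibroblast gene, at 21.6, 7.38, and 14.8 against at most 1.71. Ptprc, which encodes the CD45 used to exclude blood cells, was at 0.517, 0.176, and 0.405 RPKM in the RANK+ libraries and at most 0.199 elsewhere, so that its lowest RANK+ value lay among the others. Of 15 markers of blood cells 6 passed between CCL21+ and RANK+ TECs, all lower in the former. Of 7 markers of fibroblasts and endothelium 4 were lower and 1 higher. These counts stand beside 30.6% of all tested genes that were lower and 23.1% that were higher. No marker on either list was at 0 in all libraries. Their summed levels were 134, 161, and 157 RPKM for blood cells in RANK+ cells against 15.6 to 210 elsewhere, mostly Hba-a1, and 13.5 to 30.4 RPKM for fibroblasts and endothelium against at most 3.11, mostly Col1a1. Whether these RNAs came from other cells or from the sorted TECs was not tested. The study describes medullary TECs with the nuclear protein Aire as transcribing genes of other tissues. The part of either source in the levels of Ndufa4l2, Cox7a1, and Cox8b was not tested.

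In complex V, ATP synthase, 3 of 17 members were higher and 4 lower in CCL21+ than in RANK+ TECs, both below the 23.1% and 30.6% of all tested genes. Atp5a1, which encodes the alpha subunit, was the most abundant nuclear member of all, at 264, 266, and 307 RPKM, at 227, 278, and 289, and at 338 and 338, and passed no comparison. Atp5b, for the beta subunit that carries the catalytic sites, was at 155, 160, and 166, at 233, 251, and 242, and at 204 and 209. The 3 groups did not overlap, and the RANK+ libraries were highest. The log2 fold change was -0.59 ± 0.11 in CCL21+ over RANK+ TECs (edgeR adjusted p = 0.0011).

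The alpha and beta subunits join in equal numbers in the enzyme. Their RPKM overlapped in RANK+ TECs, while Atp5a1 was above Atp5b in every CCL21+ and double-negative library. Such an order of 2 genes also depends on the exon lengths used. Atp5f1, for the stalk subunit b, was also lower in CCL21+ than in RANK+ TECs, at 21.2, 23.4, and 25.5 RPKM against 35.3, 36.7, and 36.3 (log2 fold change -0.63 ± 0.10, edgeR adjusted p = 0.00045). Wdr77, which overlaps Atp5f1 on the other strand, did not pass in that comparison (-0.36, edgeR adjusted p = 0.083). Atp5s, a factor B homologue outside the core enzyme, was higher in CCL21+ than in RANK+ TECs, at 2.10, 1.17, and 2.38 against 0.661, 0.982, and 1.1 RPKM (1.05 ± 0.35, edgeR adjusted p = 0.027). Its call was lost without any 1 of 4 libraries (0.85 to 1.1) and with only the libraries compared (1.04). The 14 nuclear members lower in CCL21+ than in double-negative TECs held 4 of the 17 of complex V, beside 5.15% of all tested genes that were lower: Atp5o, Atp5g1, Atp5g2, and Atp5mpl. The count of 14 rested on single libraries. It was 1 without double-negative replicate 1, 0 without replicate 2, 2, 3, and 6 without CCL21+ replicate 1, 2, or 3, 7 without RANK+ replicate 3, and 32 without RANK+ replicate 1; the RANK+ libraries lie outside that comparison but share its estimate of the spread.

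The 13 mRNAs of mitochondrial DNA differed more among replicates than most nuclear members did. The median coefficient of variation within a group was 15.5% in CCL21+, 38% in RANK+, and 29.8% in double-negative TECs for the mitochondrial mRNAs, and 8.98%, 10.3%, and 4.74% for 152 nuclear members with a mean over 1 RPKM. Over 11485 tested protein-coding genes with such a mean it was 10.2%, 12.8%, and 6.59%. The nuclear members varied slightly less than other genes and the mitochondrial mRNAs more.

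mt-Co1, the catalytic subunit of complex IV and the most abundant member, was at 1599, 1715, and 1823 RPKM in CCL21+, at 1531, 2703, and 2527 in RANK+, and at 2819 and 2089 in double-negative TECs. RANK+ replicate 1 was below every other library, and the other RANK+ libraries lay among the double-negative ones. mt-Nd1 of complex I was at 309, 399, and 383, at 198, 512, and 424, and at 731 and 456, again with RANK+ replicate 1 lowest. In the RANK+ group replicate 1 was the lowest of the 3 for 13 of 13 mRNAs, in CCL21+ TECs replicate 1 for 11 of 13, and in double-negative TECs replicate 2 was below replicate 1 for all 13. Within the RANK+ and double-negative groups the same library was thus lowest for every mRNA, as the plot of the 13 mRNAs shows.

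**Figure D3:**
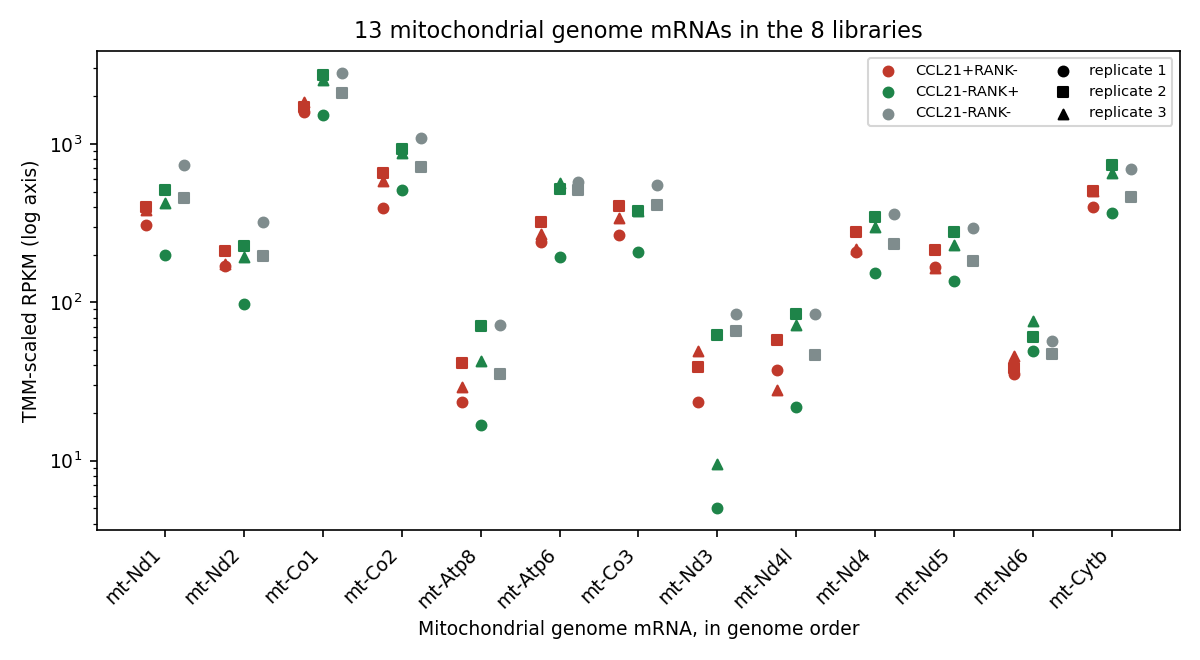
RPKM of the 13 mitochondrial genome mRNAs (log vertical axis) in genome order, with colours for populations and symbols for replicates. Within RANK+ TECs the circle, replicate 1, is lowest for all 13 mRNAs; within double-negative TECs the circle lies above the square for all 13.

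By edgeR, 0 mitochondrial mRNAs were higher and 1 lower in CCL21+ than in RANK+ TECs (0 and 1 at an unadjusted p under 0.05, and 4 lower by DESeq2). In CCL21+ against double-negative TECs 0 passed (2 lower at an unadjusted p under 0.05, 1 lower by DESeq2), and in RANK+ against double-negative TECs 0 passed (0 unadjusted, 0 by DESeq2). Of all tested genes, 23.1% were higher and 30.6% lower in the first comparison, 6.28% and 5.15% in the second, and 27.0% and 21.9% in the third. Median log2 fold changes of the 13 mRNAs were -0.32, -0.52, and -0.23, and single libraries carried them. The first was -0.02 without RANK+ replicate 2 and -0.58 without RANK+ replicate 1. The second was -0.24 without double-negative replicate 1 and -0.80 without replicate 2. The third was 0.09 without RANK+ replicate 1, -0.48 without RANK+ replicate 2, 0.10 without double-negative replicate 1, and -0.50 without double-negative replicate 2. With all libraries, all 13 had a negative value in the second comparison. Among them mt-Co1 was at -0.52 ± 0.25 and mt-Co2, a copper-binding subunit of complex IV, at -0.74 (edgeR adjusted p = 0.23 and 0.15). Whether such differences passed depended on the fit: with no filter 2 passed, among them mt-Co2 (-0.74), and with only the libraries compared 3 passed, among them mt-Nd1 (-0.69).

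The mRNA that passed was mt-Nd6 of complex I (chrM:13552-14070), the only mRNA read from the strand opposite to all the others. It was at 35.4, 38.6, and 46.0 RPKM in CCL21+, at 48.9, 60.3, and 76.5 in RANK+, and at 56.8 and 47.0 in double-negative TECs. The first 2 groups did not overlap, and the log2 fold change was -0.63 ± 0.18 (edgeR adjusted p = 0.013). It overlaps mt-Nd5 on the other strand, whose log2 fold change was -0.24 (adjusted p = 0.46), and whether the counting used strand is not given. Without RANK+ replicate 1, 6 of 13 mitochondrial mRNAs were lower in CCL21+ than in RANK+ TECs (mt-Nd6, mt-Atp6, mt-Co1, mt-Co2, mt-Cytb, and mt-Nd4l), beside 5853 of 20345 tested genes in that fit.

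Reads of mitochondrial mRNAs can also be assigned to copies of mitochondrial DNA in the nucleus. A block on chromosome 1 (24611535 to 24616197) holds 7 annotated copies that match mt-Nd4, mt-Nd4l, mt-Nd3, mt-Co3, mt-Atp6, mt-Co2, and mt-Co1 at 99.7% to 100% of aligned bases, and 2 copies on chromosome 2 match at 95.9% and 97.6%. Together the 9 copies held counts equal to 15.3% to 20.8% of those of the 13 mRNAs. Across libraries Gm10925 held 40.7% to 63.4% of the counts of its pair with mt-Atp6. Gm28437 held 44.7% to 63.0% of its pair with mt-Co3, and Gm28661 36.6% to 55.6% of its pair with mt-Co2. Of mt-Nd3 and its copy Gm28438, 345 bases could be compared and 1 differed, T3C, counted from the 5′ end of the transcript, with the mitochondrial base first. The first 40 bases of both are shown because this 1 base, in capitals, is the only difference over the 345 compared bases; the mt-Nd3 transcript is 348 bases long and that of the copy 345.
mt-Nd3: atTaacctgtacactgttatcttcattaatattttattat
Gm28438: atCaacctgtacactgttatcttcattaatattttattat

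The counts were split between this pair in unlike ways. mt-Nd3 was at 8.16, 13.6, and 17 TMM-scaled CPM in CCL21+, at 1.74, 21.6, and 3.30 in RANK+, and at 29.2 and 23.0 in double-negative TECs. The copy took 17.2%, 9.62%, and 15.7% of the pair, then 82.5%, 0%, and 85.5%, then 18.5% and 0%. The sums were 9.86, 15.1, and 20.2, then 9.94, 21.6, and 22.8, then 35.8 and 23.0, which places RANK+ replicate 3 beside replicate 2 and no longer far below it. With the copies added to the mRNA each matches best, the log2 fold change of mt-Nd3 in CCL21+ over RANK+ TECs went from 0.55 to -0.27, neither of which passed. Without RANK+ replicate 2, a library in which the copy had no counts, mt-Nd3 alone was at 2.37 and passed. Of the 9 copies themselves, 1 passed between CCL21+ and RANK+ TECs, Gm10222, a copy of mt-Nd4l with counts in 1 CCL21+ library and in no RANK+ library. The mitochondrial ribosomal RNAs also varied by library: mt-Rnr1, of the small subunit, was at 33.2, 962, and 143 RPKM, at 38.9, 96.5, and 440, and at 105 and 68.3, and neither ribosomal RNA passed.

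**Figure D4:**
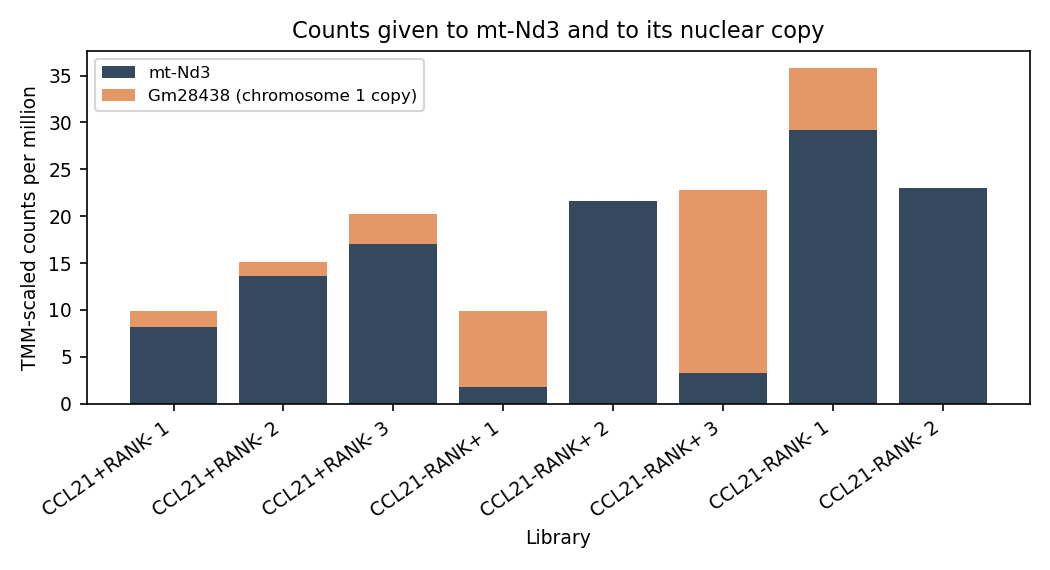
TMM-scaled CPM (vertical axis) given to mt-Nd3 and, stacked on it, to its copy on chromosome 1, Gm28438, in each of the 8 libraries. The copy holds most of the pair in RANK+ replicates 1 and 3 and none in RANK+ replicate 2 and double-negative replicate 2.

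Summed over genes, the 2 genomes were compared per library, as percentages of the counts without Gm26917 and Gm42418, records known to collect ribosomal RNA reads, which held 8.36% to 23.2% of the totals. Mitochondrial mRNAs held 0.531%, 0.656%, and 0.634% of the counts in CCL21+, 0.578%, 1.06%, and 0.962% in RANK+, and 1.03% and 0.699% in double-negative TECs. The nuclear members held 0.765%, 0.811%, and 0.865%, then 0.997%, 1.01%, and 1.00%, then 0.976% and 0.973%. The nuclear share was lowest in the 3 CCL21+ libraries and nearly equal among the others, and the mitochondrial share varied within groups.

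The ratio of mitochondrial to nuclear member counts was 0.694, 0.809, and 0.733 in CCL21+, 0.580, 1.05, and 0.961 in RANK+, and 1.05 and 0.718 in double-negative TECs. The groups overlapped, and no test was run on these sums. A share of counts also depends on what else a library holds. In CCL21+ TECs Chga, a parathyroid and endocrine gene, was at 4193, 976, and 978 RPKM and Pth, for parathyroid hormone, at 3099, 943, and 869, compared with at most 13.5 for either elsewhere. Of 6 parathyroid markers 5 were higher in CCL21+ than in RANK+ and than in double-negative TECs, beside 23.1% and 6.28% of all tested genes. Their summed levels were 7458, 2022, and 1961 RPKM against 73.3 to 107. The library with most, replicate 1, also had the lowest nuclear and mitochondrial shares of its group. Their part in those shares was not tested.

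**Figure D5:**
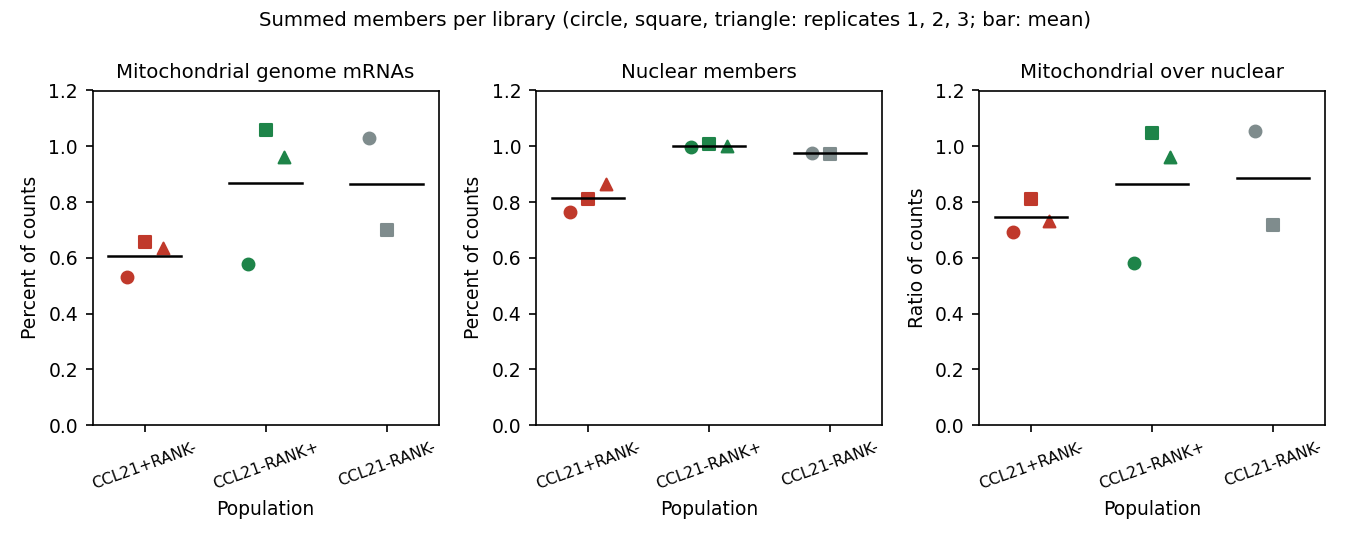
Percent of counts held by the 13 mitochondrial genome mRNAs (left) and the nuclear members (middle), and the ratio of the sums (right), for each library; vertical axes start at 0, symbols are replicates, and bars are group means. The nuclear share is lowest in the CCL21+ libraries (0.765% to 0.865%), while the ratio overlaps between the populations. Counts given to nuclear copies of mitochondrial DNA are left out.

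Genes that serve the same machinery were counted from lists, and each count stands beside the 23.1% of all tested genes that were higher and the 30.6% that were lower in CCL21+ against RANK+ TECs. Of 32 genes for replication and transcription of mitochondrial DNA and for processing of its RNA, 5 were higher and 3 lower in CCL21+ than in RANK+ TECs, with a median log2 fold change of 0.12. Tfam, which packs mitochondrial DNA and starts its transcription, was at 12.0, 11.4, and 13.1 RPKM in CCL21+, at 6.33, 8.62, and 8.09 in RANK+, and at 11.4 and 12.2 in double-negative TECs. The RANK+ libraries were the 3 lowest (log2 fold change 0.66 ± 0.13, edgeR adjusted p = 0.0018). Polrmt, the mitochondrial RNA polymerase, did not pass in any comparison. Lrpprc, which stabilizes mitochondrial mRNAs, passed only between RANK+ and double-negative TECs with all libraries (-0.73, edgeR adjusted p = 0.0035). Without RANK+ replicate 3 Lrpprc was also called higher in CCL21+ than in RANK+ TECs (0.42). Top1mt, the mitochondrial topoisomerase, was higher (1.00, adjusted p = 0.0028) and Tbrg4, an RNA-binding protein, lower (-0.67, adjusted p = 0.0052) in CCL21+ than in RANK+ TECs.

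Of 47 assembly factors, which build the complexes without staying in them, 8 were higher and 5 lower in the same comparison. Sdhaf1, an assembly factor of complex II, was at 3.93, 5.01, and 4.39 RPKM in CCL21+, at 18.7, 16.4, and 15.5 in RANK+, and at 5.04 and 5.40 in double-negative TECs. The RANK+ libraries stood far above the others (log2 fold change -1.93, edgeR adjusted p = 2.99e-06). Atpaf2, an assembly factor of ATP synthase, was lowest there instead, at 20.7, 25.2, and 22.8, then 7.85, 12.8, and 9.57, then 25.2 and 24.8 (1.19, adjusted p = 0.00027). Of 7 genes for complex II, cytochrome c, and subunits outside the symbol rule, 2 passed, both lower: Cycs, for cytochrome c itself (-1.44, adjusted p = 8.95e-06), and Cyc1 (-0.54, adjusted p = 0.0035). Of 12 translation factors 3 passed, all higher, led by Taco1, an activator of mt-Co1 translation (1.2, adjusted p = 0.0003). The smallest of them, Mtrf1l, lost its call under all of the 7 other settings (0.36 to 0.48). It was also lost on leaving out any library except RANK+ replicate 1 (0.41 to 0.53).

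Of 16 nuclear regulators of mitochondrial biogenesis, 6 were higher and 6 lower in CCL21+ than in RANK+ TECs. Ppargc1b, a coactivator of nuclear respiratory genes, was at 7.24, 8.12, and 8.43 RPKM in CCL21+, at 2.49, 2.46, and 2.52 in RANK+, and at 5.32 and 4.13 in double-negative TECs. The 3 groups did not overlap (log2 fold change 1.67 over RANK+ TECs, edgeR adjusted p = 6.96e-06). Its relative Ppargc1a reached at most 0.556 RPKM and was highest in RANK+ cells (log2 fold change -1.45, edgeR adjusted p = 0.03; lost without any 1 of 4 libraries, -1.47 to -1.13). Gabpa, an ETS factor that binds promoters of respiratory genes, was higher in CCL21+ than in RANK+ TECs (0.55, edgeR adjusted p = 0.0016). It overlaps the member Atp5j on the other strand. Whether the counting used strand is not given, so reads in the overlap cannot be told apart. Myc and Esrrb were lower in CCL21+ than in RANK+ TECs (-0.60 and -4.35, edgeR adjusted p = 0.032 and 0.00083). The call of Myc was lost without any 1 of 5 libraries (-0.60 to -0.44). Nrf1 did not pass in any comparison.

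The promoters of the nuclear members were read from RefSeq (GRCm38.p6, 250 bases before to 50 after the start), which had an entry for 132 of 162 nuclear member symbols. On either strand, the NRF1 letters GCGCANGCG were in 25.8% of them, the ETS letters CCGGAAG in 30.3%, the YY1 letters AAGATGGC in 15.9%, and any of the 3 in 59.1%. The ETS and YY1 letters can overlap. Over all 27025 genes with an entry these shares were 7.03%, 9.93%, 3.19%, and 17.8%, and over 14021 tested genes 12.0%, 16.1%, 4.28%, and 28.1%. Any motif was in 13 of 16 members with an entry that were higher and in 10 of 23 that were lower in CCL21+ than in RANK+ TECs. These are counts of letters in windows, and binding was not measured.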

How the data were processed

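The authors deposited 1 table of RSEM expected counts for 8 libraries of E17 TECs, not normalized. The submitters' processing notes name bcl2fastq 2.20, Trimmomatic, STAR 2.5.1, RSEM 1.3.1, and mm10. RSEM divides reads that fit several genes, so near-identical genes are uncertain; 4.47% to 5.94% of values were not whole. The labels and the paper name different library kits, both stranded, and the strand setting of the counting is not given in the sources used here. Identifiers matched GENCODE M21 (GRCm38).

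Expected counts were rounded and fitted in edgeR 4.0.16 (R 4.3.3) with TMM, filterByExpr, 3 group means, and glmQLFTest with Benjamini-Hochberg adjustment; SE is |log2 fold change| over the root of F. RPKM used the length of all annotated exons of a gene, with overlapping bases counted once. Libraries were grouped by the cell type label. Replicates differed beyond sampling noise (chi-square per gene 84.9 to 301) and were kept as separate libraries; the common biological coefficient of variation was 0.326. Counts of reads are not counts of molecules. Nuclear copies were matched with BLAST+ 2.17.0, and figures used matplotlib 3.10.9. Alternatives were DESeq2 1.42.0, other scalings, filters, and models, and leaving out each library; adding the nuclear copies was chosen after seeing the data.

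The members and gene lists were chosen with earlier results of these data known. Named were the 13 mitochondrial mRNAs; per nuclear group the 2 most abundant members and the largest and smallest log2 fold change in CCL21+RANK- versus CCL21-RANK+; tissue-restricted isoforms and partners; from each other list the largest and smallest passing member, with 8 regulators; and both reporter genes. Marker genes, overlapping neighbours, Ndufc2, and the 4 complex V genes listed together were named besides. Vmac and the other neighbours were chosen after their values were seen.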

Additional observations from a re-analysis of the deposited data

How the results depend on the processing

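Counts of members past the test moved with scaling and filter. In CCL21+ versus RANK+ TECs, the 18 higher nuclear members became 10 with DESeq2's size factors, upper-quartile scaling, no filter, or DESeq2's Wald test, 7 with at least 10 counts in every library, and 6 with the fold and RPKM thresholds; the 30 lower became 48 with that filter and 15 with those thresholds. Against double-negative TECs, the 14 lower became 8 with either scaling, 23 with only the libraries compared, and 4 with the thresholds. In RANK+ versus double-negative TECs, the 8 higher became 16 with either scaling, that filter, or DESeq2, and 5 with the thresholds, and the 48 lower became 25, 28 (upper quartile), 21 (that filter), 25 (DESeq2), and 16. Mitochondrial mRNAs called lower numbered 3, 2, and 3 in the 3 comparisons with no filter, 4 and 1 with DESeq2 in the first and second, and 3 in the second with only the libraries compared. The scalings moved the median of all genes; the cause of the other shifts was not tested.

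Leaving out 1 library gave 9 to 18 higher and 21 to 39 lower nuclear members in the first comparison (9 without RANK+ replicate 3, 10 without CCL21+ replicate 2), 0 to 0 and 0 to 32 in the second, and 3 to 11 and 17 to 47 in the third (3 and 24 without double-negative replicate 1, 5 and 17 without replicate 2, 29 lower without RANK+ replicate 3). Mitochondrial mRNAs ran from 0 to 1 higher and 1 to 6 lower, 0 higher and 0 to 2 lower, and 0 higher and 0 to 1 lower. Same-numbered libraries did not deviate together (r from -0.12 to 0.13), so the replicate block is given here only: it left 14 and 29, 0 and 12, and 7 and 45 nuclear members higher and lower, and called 1 mitochondrial mRNA lower in the third comparison. Of the calls named between CCL21+ and RANK+ TECs, those of Cox8b (-2.13), Ndufa2 (0.28), Mtrf1l (0.50), and Dlat (-0.25) were not made with the block. Calls gained with the block included Lrpprc between CCL21+ and RANK+ TECs (0.35) and Atp5a1 between RANK+ and double-negative TECs (-0.43).

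No gene named by the rule changed sign with a call. Ndufa11, Ndufc2, Mrps24, Mrps5, Atp5b, and Atp5f1 kept their calls between CCL21+ and RANK+ TECs under each alternative that gave a value. Only 2 double-negative libraries and the spread of the mitochondrial mRNAs among replicates limit the precision of these values.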

Other observations

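Other genes of energy metabolism were counted in the same way. Of 21 tested records on a list of glycolysis genes, 2 were higher and 11 lower in CCL21+ than in RANK+ TECs, beside 23.1% and 30.6% of all tested genes, with a median log2 fold change of -0.52 beside -0.11 for all tested genes. Slc2a3, a glucose transporter, was at 0.0239, 0.0233, and 0.0120 RPKM in CCL21+, at 1.47, 0.662, and 0.784 in RANK+, and at 0.153 and 0.0868 in double-negative TECs (log2 fold change -5.61 in the first comparison, edgeR adjusted p = 1.6e-05). Ldhb, the lactate dehydrogenase subunit of heart, was higher in CCL21+ TECs instead, at 112, 116, and 127 against 83.4, 62.8, and 57.3 RPKM (0.80, adjusted p = 0.001). Of 18 genes for the tricarboxylic acid cycle and pyruvate dehydrogenase 6 passed, all lower, a share of 33.3% beside 30.6% of all tested genes lower; they ran from Dlat (-0.25), whose call was lost without any 1 of 5 libraries, to Idh3a (-0.64).

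Of 29 genes for import into mitochondria and folding there, 3 were higher and 6 lower. Hspd1, the mitochondrial chaperonin, was at 53.4, 55.5, and 66.1 RPKM in CCL21+, at 147, 214, and 206 in RANK+, and at 86.9 and 84.4 in double-negative TECs, with no overlap between the 3 groups (-1.69, edgeR adjusted p = 1.64e-05). Hspd1 overlaps Hspe1 on the other strand, and whether the counting used strand is not given. Timm17b, a part of the inner membrane import channel, was lowest in RANK+ cells. It was at 6.67, 8.08, and 6.88 RPKM there against 9.88, 10.1, and 12.4 in CCL21+ TECs (0.58, edgeR adjusted p = 0.0038).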
